A study of Mus musculus with 16 samples.

Results

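The 10 genes described here are the 3 chains of complement C1q (C1qa, C1qb and C1qc) and 7 receptors and surface proteins of tissue-resident macrophages (Folr2, Mrc1, Cd163, Mertk, Trem2, Gpnmb and Marco), out of 23999 gene symbols in the deposited count table. They were picked from that table as resident macrophage genes, with C1qa and C1qc among the genes that separated myeloid sarcoma from bone marrow. The difference between the tissues therefore chose them, and for these 10 genes it is described below with no test.

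The study profiled polyA RNA by sequencing from mice with acute myeloid leukaemia driven by NPM1cA, the mutant nucleophosmin that is found in cytoplasm. It sampled myeloid sarcomas, which are solid tumours of leukaemia cells outside the marrow, and whole bone marrow infiltrated by the leukaemia. All mice carried NPM1cA. In all but 1 of them this came with loss of 1 copy of Smc3 (SMC3+/-), a subunit of the cohesin ring that holds chromatin loops and sister chromatids. The groups were SMC3+/- sarcoma (6 tumour libraries from 4 mice), SMC3+/- marrow (9 mice, 1 library each) and 1 sarcoma with NPM1cA and wild-type SMC3, from mouse 841. Mice 948 and 2721 gave 2 tumours each, and mice 1267 and 2721 gave both tissues. The label 1268_1270 names 1 tumour library, which may come from 1 mouse or from a pool, and it was counted as 1 mouse. Ages, and the promoter or locus behind NPM1cA, were not given. Tumours went from dissection straight into Trizol. Marrow cells were crushed out of bone, filtered and cleared of red cells first, so that tissue and handling cannot be told apart.

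C1q starts the classical complement pathway: its A, B and C chains fold together, bind antibody or dying cells, and carry the proteases C1r and C1s. Tissue macrophages are its main source, unlike most complement proteins, which come largely from liver. Macrophages that settle in tissues also carry scavenger receptors and receptors for dying cells (Mrc1, Cd163, Marco, Mertk, Trem2), which circulating monocytes mostly lack.

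Total counts ran from 9797201 in the sarcoma of mouse 841 to 39197660 in 1 marrow. Levels are given as CPM (counts scaled to a common total) on TMM-scaled totals. TMM is a scaling that holds most genes level between samples. A set of 4 libraries was poor in transcripts longer than 6 kb, namely marrows 737, 779 and 782 and tumour 1 of mouse 948. In them the median long gene stood at a log2 deviation of -2.41 to -1.24, against -0.94 to 0.63 in the others. The tumour library 1268_1270 stood apart in another way: its summed CPM of 16 pan-leukocyte genes was 762, against 6831 to 11278 in the other SMC3+/- sarcomas and 8229 to 15136 in marrow. Its 7 leukaemia and blood progenitor markers summed to 132 CPM (marrow 1734 to 18419) and its 5 adipocyte markers to 35078 CPM (marrow 1.20 to 20.8). Markers of the leukaemia named by its label were thus low there. Smc3, which has 1 intact copy in the SMC3+/- mice, was at 143 CPM in the sarcoma of mouse 841 and inside 63.6 to 217 CPM in the SMC3+/- sarcomas. It was at 133 to 238 CPM in 6 marrows and at 3.52 to 8.12 CPM in the 3 poor in long transcripts, so its level does not separate the genotypes here. Some of the results that rest on these libraries are given with and without them below.

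The C1q chains were low in every marrow and higher in every SMC3+/- sarcoma. C1qa, the A chain, was at 115, 174, 257 and 177 CPM in the sarcomas of mice 1267, 1268_1270, 2721 and 948. In the 9 marrows it ran from 0 to 15.7 CPM with a median of 2.45. Every sarcoma lay above every marrow, and the means were 181 ± 58.3 CPM (SD, n = 4) and 6.20 ± 6.31 CPM (SD, n = 9), a log2 difference of 4.76 ± 0.91 (SE) in the edgeR fit. These libraries are bulk tissue, in which fewer cells of a type and less RNA per cell cannot be told apart.

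C1qb was at 149, 139, 214 and 145 CPM in the same 4 sarcomas, and at 0 to 23.2 CPM in marrow with a median of 5.54. Its mean rose from 6.93 ± 7.21 CPM (SD, n = 9) to 162 ± 35.2 CPM (SD, n = 4), a log2 difference of 4.43 ± 0.95 (SE). Relative to its mean it had the narrowest spread between sarcomas of the 10 genes (SD over mean 0.218). C1qc was at 148, 132, 255 and 161 CPM in the sarcomas and at 0 to 19.0 CPM in marrow with a median of 4.07. Its means were 174 ± 55.4 CPM (SD, n = 4) and 6.88 ± 6.62 CPM (SD, n = 9), which differ by 4.55 ± 0.86 (SE) on the log2 scale. For both genes, as for C1qa, the groups did not overlap.

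**Figure D1:**
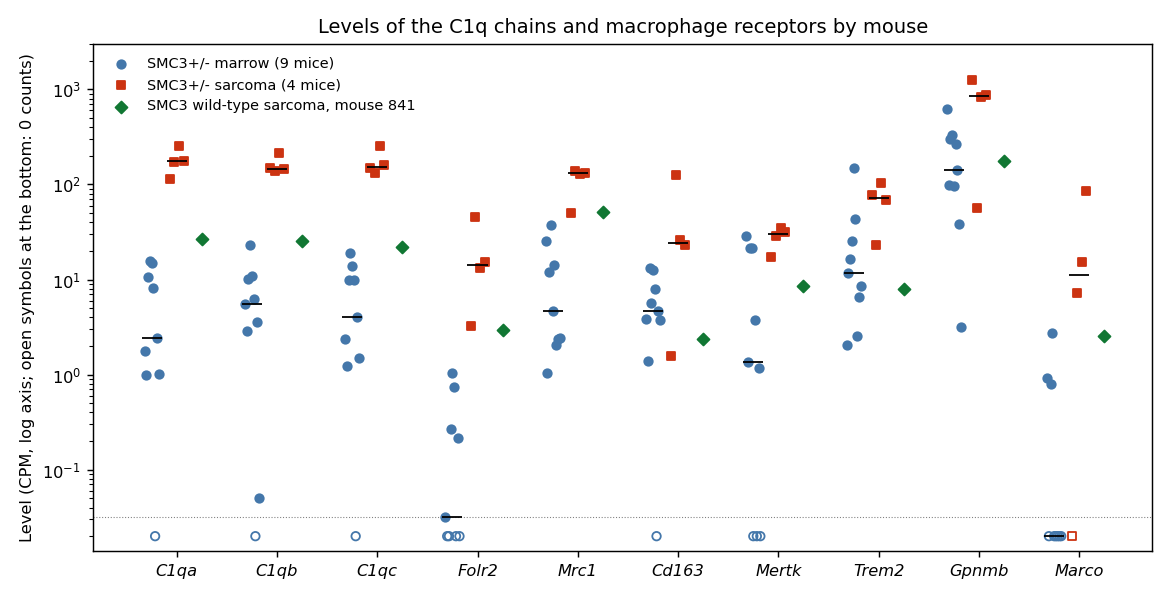
Level of each gene (CPM, logarithmic axis) in 9 SMC3+/- marrows, 4 SMC3+/- sarcoma mice and the SMC3 wild-type sarcoma of mouse 841. Each point is a mouse, black bars are group medians and open symbols at the bottom are samples with 0 counts. The 3 C1q chains, Folr2 and Mrc1 show no overlap between SMC3+/- sarcoma and marrow, and mouse 841 lies between the groups for the C1q chains.

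Marrow 782 had no count of any C1q chain, which at its depth allows a level of up to 0.212 CPM (3 counts; counts here carry no molecular identifiers, so this and the intervals below cover counting error only). It also had no count for 4 of the other 7 genes. The marrow with the most C1q was that of mouse 3332, at 15.7, 23.2 and 19.0 CPM for the 3 chains. It was also the highest marrow for Mrc1 and Marco. Within the 2 mice that gave both tissues the gap was as wide: C1qa went from 0.983 to 115 CPM in mouse 1267 and from 10.6 to 257 CPM in mouse 2721. The log2 differences of C1qa in these mice were 6.75 and 4.58.

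C1q was also set against the leukocyte RNA in each sample. Per 1000 CPM of the pan-leukocyte genes, the summed C1q level was 42.8 to 583 CPM in the SMC3+/- sarcomas and 0 to 5.94 CPM in marrow. The highest ratio belonged to 1268_1270, the tumour with the least leukocyte RNA. The next was 87.0, in mouse 2721. The sarcoma of mouse 841 had 9.73 CPM. A list of 10 general macrophage genes (pan-macrophage) summed to 2623 to 18902 CPM in marrow and 1274 to 9188 CPM in the SMC3+/- sarcomas, and none of the 10 passed the test in either direction.

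The 3 chain genes lie side by side on mouse chromosome 4, in the order C1qb, C1qc and C1qa. The stretches ahead of C1qb and C1qc are shown because these neighbours were high in the same samples. They are the 250 bases upstream of the RefSeq start in build GRCm38.p6, both on the minus strand, at chr4:136886201-136886450 for C1qb and chr4:136892915-136893164 for C1qc. The table used holds no entry for C1qa. Capitals mark matches, on either strand, to 5 short motifs: GAGGAA (core of the PU.1 site), TGCTGA (Maf half-site), CACGTG (E-box), TCATGTG (M-box of the MITF family) and the interferon regulatory factor element.
C1qb: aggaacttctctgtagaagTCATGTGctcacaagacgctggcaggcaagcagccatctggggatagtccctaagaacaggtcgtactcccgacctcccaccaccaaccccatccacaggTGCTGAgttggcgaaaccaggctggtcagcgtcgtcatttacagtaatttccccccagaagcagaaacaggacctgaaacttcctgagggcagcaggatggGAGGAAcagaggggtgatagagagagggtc
C1qc: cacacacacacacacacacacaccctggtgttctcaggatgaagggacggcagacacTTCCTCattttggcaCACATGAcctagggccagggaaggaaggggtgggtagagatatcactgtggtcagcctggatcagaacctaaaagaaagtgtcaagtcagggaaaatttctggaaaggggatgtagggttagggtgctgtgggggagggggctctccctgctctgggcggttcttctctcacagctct

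The C1qb stretch held TCATGTG beginning 231 bases before the start, TGCTGA at 131 bases and GAGGAA at 30 bases. In the C1qc stretch GAGGAA began 193 bases and TCATGTG 178 bases before the start, both on the opposite strand, and no marked match overlapped another. Of 32851 such stretches in the table, 23.3% held GAGGAA, 16.1% TGCTGA, 6.02% CACGTG, 3.25% TCATGTG and 2.98% the interferon regulatory factor element. A match is a run of letters and not a measured binding site. The bases that follow the C1qc stretch occur in a GENCODE M21 transcript of the gene, and those that follow the C1qb stretch do not.

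The chains were balanced wherever C1q was well counted. In the 9 libraries with at least 500 C1q counts, C1qa made up 27.1% to 39.5% of the C1q counts, C1qb 27.6% to 40.0% and C1qc 29.6% to 35.9%. All 7 tumour libraries and 2 marrows were among them. Marrows with few counts departed from this. In marrow 1103 C1qb took 57.4% of 303 counts (95% Wilson interval 51.8% to 62.9%), and in marrow 1267 it took 56.1% of 98 counts. In marrow 949 it took 1.96% of 51 counts.

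**Figure D2:**
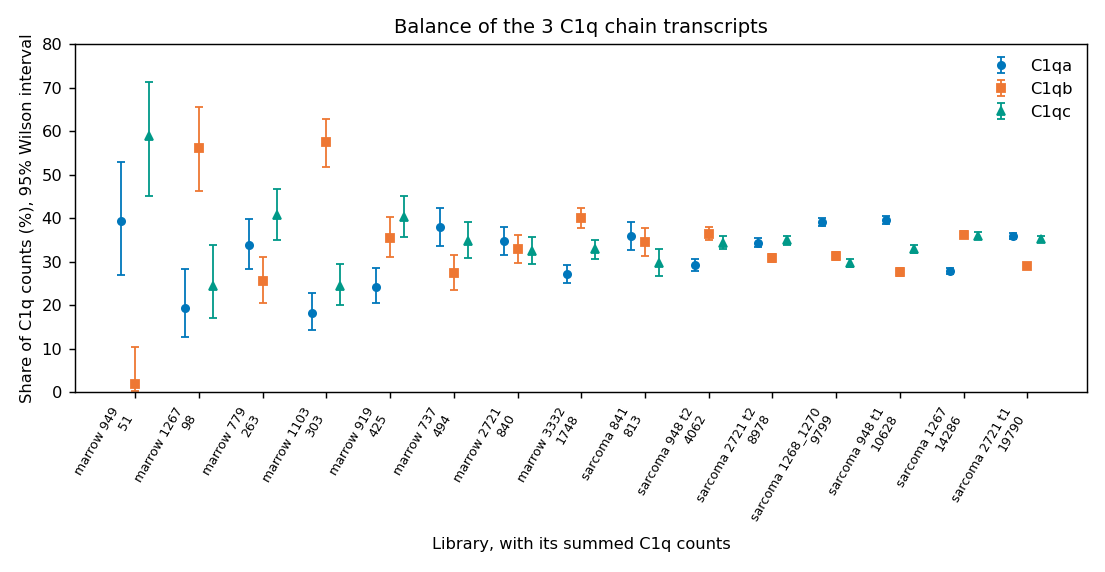
Share of C1qa, C1qb and C1qc in the summed C1q counts of each library (percent, with 95% Wilson intervals of counting error), libraries ordered by tissue and by C1q counts, which are printed under each name. The 7 tumour libraries keep each chain between 27.6% and 39.5%, and the marrows with under 500 counts spread more widely.

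Across the 9 marrows, C1qa and C1qc ran in parallel (Pearson r = 0.99, Spearman rho = 1.00 on log2 CPM), and r was 0.99 without the 2 marrows farthest from the C1qa median (782 and 3332). For C1qa and C1qb r was 0.88 (rho = 0.97), and 0.70 without those 2. C1qa and Cd163 gave r = 0.93 (rho = 0.88), and 0.93 without them. Over the 6 marrows not poor in long transcripts r was 0.99 with C1qc, 0.75 with C1qb and 0.77 with Cd163. These values describe samples that share depth and transcript-length differences, and no p is given.

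Folr2, a folate receptor of resident macrophages, had 39 counts in all 9 marrows together. It was at 3.28, 45.5, 13.1 and 15.3 CPM in the sarcomas of mice 1267, 1268_1270, 2721 and 948, and at 0 to 1.04 CPM in marrow. The groups did not overlap, with means of 19.3 ± 18.2 CPM (SD, n = 4) and 0.255 ± 0.382 CPM (SD, n = 9). The log2 difference of Folr2 was 6.28 ± 1.27 (SE), and 5.29 without 1268_1270, its highest sarcoma.

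Mrc1 encodes the mannose receptor CD206, an endocytic lectin. It was at 49.6, 139, 129 and 132 CPM in the 4 sarcomas and at 1.03 to 37.7 CPM in marrow, with a median of 4.65. Again the groups did not overlap, although the sarcoma of mouse 1267 was close to the highest marrow. The means were 112 ± 42.1 CPM (SD, n = 4) and 11.3 ± 12.8 CPM (SD, n = 9), a log2 difference of 3.21 ± 0.77 (SE). The stretch ahead of Mrc1 (GRCm38.p6, plus strand, chr2:14229164-14229413, RefSeq) is shown because it held 3 matches to GAGGAA, the most among the 9 genes with an entry, all on the opposite strand and in capitals.
Mrc1: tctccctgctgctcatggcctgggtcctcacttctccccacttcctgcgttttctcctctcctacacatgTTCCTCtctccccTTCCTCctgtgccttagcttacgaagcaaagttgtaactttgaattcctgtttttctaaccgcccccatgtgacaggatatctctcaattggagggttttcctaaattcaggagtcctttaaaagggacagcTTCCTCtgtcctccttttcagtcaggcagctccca

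Cd163, the scavenger receptor for haemoglobin bound to haptoglobin, divided the sarcomas. It was at 1.58, 126, 26.0 and 23.0 CPM in mice 1267, 1268_1270, 2721 and 948, against 0 to 13.2 CPM in marrow. Of the 4 sarcomas 3 lay above every marrow, and the sarcoma of mouse 1267 lay below 7 of the 9 marrows. The log2 difference was 2.86 ± 0.97 (SE), and 1.35 without 1268_1270. Within the same mice it was small: Cd163 went from 1.40 to 1.58 CPM in mouse 1267 and from 13.2 to 26.0 CPM in mouse 2721.

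Marco, a scavenger receptor that binds bacteria and particles, was the most uneven gene. It had 0 counts in 6 of the 9 marrows and reached 2.72 CPM in the highest. Among the sarcomas it had 0 counts in mouse 1267, 7.17 CPM in 1268_1270, 15.4 CPM in mouse 2721 and 85.1 CPM in mouse 948. The means were 26.9 ± 39.3 CPM (SD, n = 4) and 0.494 ± 0.915 CPM (SD, n = 9), and the log2 difference was 5.61 ± 1.69 (SE).

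Mertk, Trem2 and Gpnmb overlapped between the tissues. Mertk, the receptor kinase by which macrophages take up dying cells through Gas6 and protein S, was at 17.4, 28.8, 35.1 and 31.4 CPM in the sarcomas and at 0 to 29.0 CPM in marrow. The marrows of 3 mice (1103, 2721 and 3332) were above the lowest sarcoma, and 3 others had no count. Its log2 difference was 1.55 ± 1.35 (SE).

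Trem2, a lipid-sensing receptor that signals through Tyrobp, was at 76.8, 23.2, 105 and 68.4 CPM in the sarcomas and at 2.07 to 148 CPM in marrow, with a median of 11.6. The highest of all 14 samples was marrow 737, one of the libraries poor in long transcripts. The log2 difference of Trem2 was 1.08 ± 0.88 (SE), 2.08 without marrow 737 and 2.60 without the 4 libraries poor in long transcripts.

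Gpnmb, a membrane glycoprotein of lysosome-rich cells, was the most abundant of the 10 genes. It was at 1248, 56.2, 824 and 880.1 CPM in the sarcomas and at 3.16 to 623 CPM in marrow, with a median of 140.3. The tumour 1268_1270 was below 7 of the 9 marrows, and the other 3 sarcomas were above all of them. The log2 difference of Gpnmb was 1.66 ± 0.87 (SE), and 2.04 without 1268_1270. Osteoclasts also express Gpnmb. Of 7 osteoclast markers, a list added after the data were seen, 5 could be tested. Acp5, Ctsk and Atp6v0d2 rose in sarcoma, Acp5 to 368 CPM in 1268_1270 and to 24.7 to 50.9 CPM in the others (marrow at most 28.1 CPM). Mmp9 and Ocstamp did not pass, with log2 differences of -2.66 ± 1.01 and -2.70 ± 1.81 (SE). Calcr had no count in any marrow. The part of these cells in the Gpnmb level was not tested.

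All 10 genes had the higher mean in sarcoma, and all 10 passed the filter on low counts. The groups did not overlap for 5 of the 10 genes (C1qa, C1qb, C1qc, Folr2 and Mrc1). Over all 14730 genes tested, 4.56% had all 4 sarcomas above all 9 marrows. In the edgeR fit 4.49% of all genes were called higher (Benjamini-Hochberg adjusted p under 0.05) and 4.55% were called in either direction. The median log2 difference was 3.82 over the 10 genes and 0.07 over all genes tested. Nothing is read from these counts, since this contrast chose the genes. Every one of the 10 kept the sign of its difference in all 27 alternative settings, which the choice of genes also favours. With mouse as a block Cd163 was at 0.29, close to the median gene at 0.22. Scaling to the pan-leukocyte genes moved the median gene to 1.79, close to Trem2 (1.88) and Gpnmb (2.11) under that scaling, while C1qa stood at 6.54.

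Per kilobase of transcript, which lets genes be compared, the sarcoma order was led by Gpnmb at 203 ± 135 CPM per kb (SD, n = 4). C1qa followed at 174 ± 56.1, C1qb at 149 ± 32.4 and C1qc at 144 ± 46.1 CPM per kb. These 4 did not differ beyond their spread. Trem2 came next at 62.8 ± 31.1 CPM per kb, then Mrc1 at 20.9 ± 7.83. Folr2, Marco, Cd163 and Mertk followed in that order, down to 9.93 ± 12.5 for Cd163 and 6.55 ± 1.77 for Mertk, and did not differ from their neighbours beyond the spread. In marrow Gpnmb (56.8 ± 52.2 CPM per kb, SD, n = 9) and Trem2 (26.9 ± 42.5) came before the C1q chains (5.72 to 6.37). Without marrow 737 Trem2 was at 13.3 ± 12.7 CPM per kb (SD, n = 8).

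The sarcomas differed from each other in which of these genes they carried. Tumour 1268_1270 was the highest of the 4 SMC3+/- sarcoma mice for Folr2, Mrc1 and Cd163 and the lowest for C1qb, C1qc, Trem2 and Gpnmb. The sarcoma of mouse 2721 was the highest for 5 genes, the 3 C1q chains, Mertk and Trem2. In mouse 1267 the tumour had the most Gpnmb, no Marco and the least C1qa, Folr2, Mrc1, Cd163 and Mertk. From the lowest to the highest sarcoma C1qa spanned 2.24-fold, Mertk 2.01-fold, C1qc 1.94-fold and C1qb 1.54-fold. Mrc1 spanned 2.80-fold, Trem2 4.52-fold, Folr2 13.9-fold, Gpnmb 22.2-fold and Cd163 79.5-fold.

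**Figure D3:**
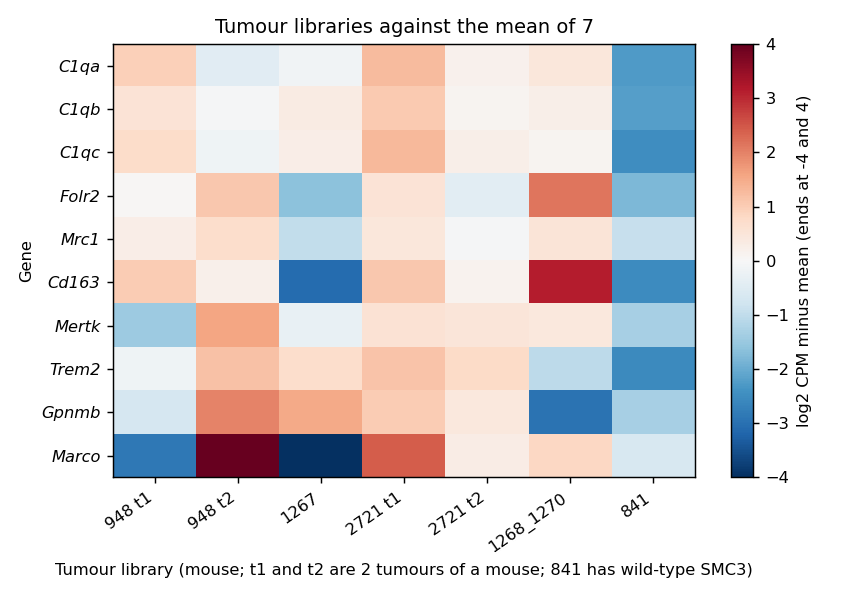
Log2 CPM of each gene in each of the 7 tumour libraries, minus the mean of the gene over the 7 (colour ends at -4 and 4). Columns t1 and t2 are the 2 tumours of a mouse. The 3 C1q rows share a pattern, highest in tumour 1 of mouse 2721 and lowest in mouse 841. Marco differs most between the tumours of mouse 948, and Folr2 and Cd163 peak in 1268_1270.

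The 2 tumours of mouse 948 were unlike over the whole transcriptome, and most of the 10 genes were no more unlike than other genes. C1qa fell from 247 CPM in tumour 1 to 93.3 CPM in tumour 2, and C1qc from 206 to 109 CPM. Gpnmb went the other way, from 273 to 1736 CPM, as did Mertk from 7.75 to 64.5 CPM and Trem2 from 42.5 to 107 CPM. Marco had 8 counts in tumour 1 (0.470 CPM) and 2581 counts in tumour 2 (202 CPM). The median of the 9164 genes differed by 1.05 on the log2 scale between these tumours and 95% of them by under 2.84. Of the 10 genes Mertk and Marco were past that mark, and 5 (C1qb, C1qc, Folr2, Mrc1 and Cd163) differed by less than the median gene. Tumour 1 is the one poor in long transcripts, and the part of that in these differences was not tested.

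In mouse 2721 the 2 tumours were close over the same 9164 genes, with a median log2 difference of 0.13 and 95% of genes under 0.50. Even so C1qa was at 306 CPM in tumour 1 and 143 CPM in tumour 2. C1qb was at 247 and 128 CPM, and C1qc at 301 and 146 CPM. All 3 chains thus differed by more than 95% of the 9164 genes did between these tumours. So did Folr2 (15.1 and 7.76 CPM), Mrc1 (134 and 93.3 CPM), Cd163 (30.0 and 15.5 CPM), Gpnmb (873 and 577 CPM) and Marco (21.7 and 4.93 CPM). Mertk (32.1 and 30.0 CPM) and Trem2 (104 and 80.5 CPM) did not. As above, Folr2, Cd163, Mertk and Marco were set against genes of a higher mean level. Tumour 1 had more of each of the 10 genes. There is no replicate of either tumour, so these are differences between libraries.

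The sarcoma with wild-type SMC3, from mouse 841, is described with no test for the 10 genes. They were chosen as high in sarcoma and low in marrow, so a lower value than the SMC3+/- sarcomas and a higher one than marrow are both favoured by the choice. Compared with the means of the 4 SMC3+/- sarcomas it had less of each: C1qa was at 26.6 CPM, C1qb at 25.6 and C1qc at 22.1 CPM, below all 4. Folr2 (2.92 CPM), Mertk (8.58 CPM) and Trem2 (8.03 CPM) were also below all 4. That makes 6 of 10 genes, where 19.3% of all 17762 genes tested lay below the 4 SMC3+/- sarcomas. Mrc1 (51.2 CPM), Cd163 (2.37 CPM), Gpnmb (175 CPM) and Marco (2.56 CPM) lay inside their range.

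The log2 differences from the SMC3+/- sarcomas were -2.76 ± 0.82 (SE) for C1qa, -2.66 ± 0.72 for C1qb, -2.97 ± 0.80 for C1qc and -3.08 ± 1.02 for Trem2. For Mertk the difference was -1.71 ± 0.74, and for Mrc1 -1.13 ± 0.78. Over the transcriptome no gene passed edgeR's quasi-likelihood test after Benjamini-Hochberg adjustment (0% called), and 236 of the 17762 genes had an unadjusted p under 0.05. DESeq2 called 7 genes higher and 55 lower, and limma-voom called 0. With 1 tumour on one side, a lack of calls does not show that the tumours are alike. A single tumour stands for the genotype here, and it is assumed to vary as the others do. Its library was the smallest, and its pan-leukocyte sum (7629 CPM) lay inside the range of the SMC3+/- sarcomas. Its pan-macrophage sum (3667 CPM) was above that of 1268_1270 (1274 CPM) and below 3694 to 9188 CPM in the other SMC3+/- sarcomas.

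**Figure D4:**
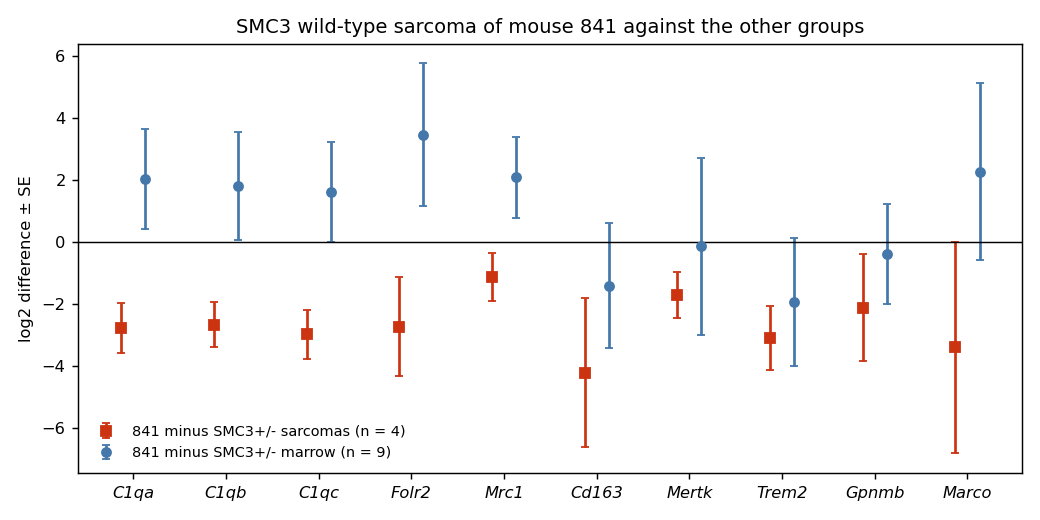
Log2 difference ± SE of each gene between the SMC3 wild-type sarcoma of mouse 841 and the 4 SMC3+/- sarcomas (squares) or the 9 SMC3+/- marrows (circles), which share that tumour. All 10 differences from the sarcomas are below 0, and those from marrow are above 0 for the C1q chains, Folr2, Mrc1 and Marco.

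Against the 9 marrows, the tumour of mouse 841 had more C1q: 26.6 CPM of C1qa against at most 15.7, 25.6 CPM of C1qb against at most 23.2 and 22.1 CPM of C1qc against at most 19.0. Folr2 and Mrc1 also lay above all 9 marrows, which makes 5 of 10 genes, where 13.6% of 16472 genes did. The log2 differences were 2.03 ± 1.62 (SE) for C1qa, 1.81 ± 1.75 for C1qb, 1.62 ± 1.61 for C1qc, 3.47 ± 2.29 for Folr2 and 2.10 ± 1.30 for Mrc1. Trem2 (-1.93 ± 2.07) and Cd163 (-1.40 ± 2.01) were on the other side. Over the transcriptome edgeR called 0.0121% of genes. With SEs of this size the values do not show that the tumour is like marrow. Genotype and tissue differ together in this comparison.

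The partners of these genes were examined in 8 lists holding 174 pathway genes without the 10, of which 158 could be tested between SMC3+/- sarcoma and marrow. Of these 32 rose in sarcoma and 0 fell, at an adjusted p under 0.05 in edgeR's quasi-likelihood test. This is 20.3%, where 4.49% of all genes tested were called higher. The lists were drawn up with earlier results of these data known, and genes near 0 in marrow pass the filter only through the sarcomas. Scara5, Gulp1 and Vtn, with 3 or fewer counts over all marrows, had to differ to be tested, and 29 calls are left without them. The 29 still hold genes near 0 in marrow, such as C1s1 with 61 counts over all marrows and Cd209f with 38. Without 1268_1270 the count was 10, and 9 of these had been called with it. Without the 4 libraries poor in long transcripts it was 21, with 19 shared. With mouse as a block, which uses the pairing of mice 1267 and 2721, 8 were called and 5 shared (C2, Cbr2, Gas6, Lgmn and Mrc2).

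**Figure D5:**
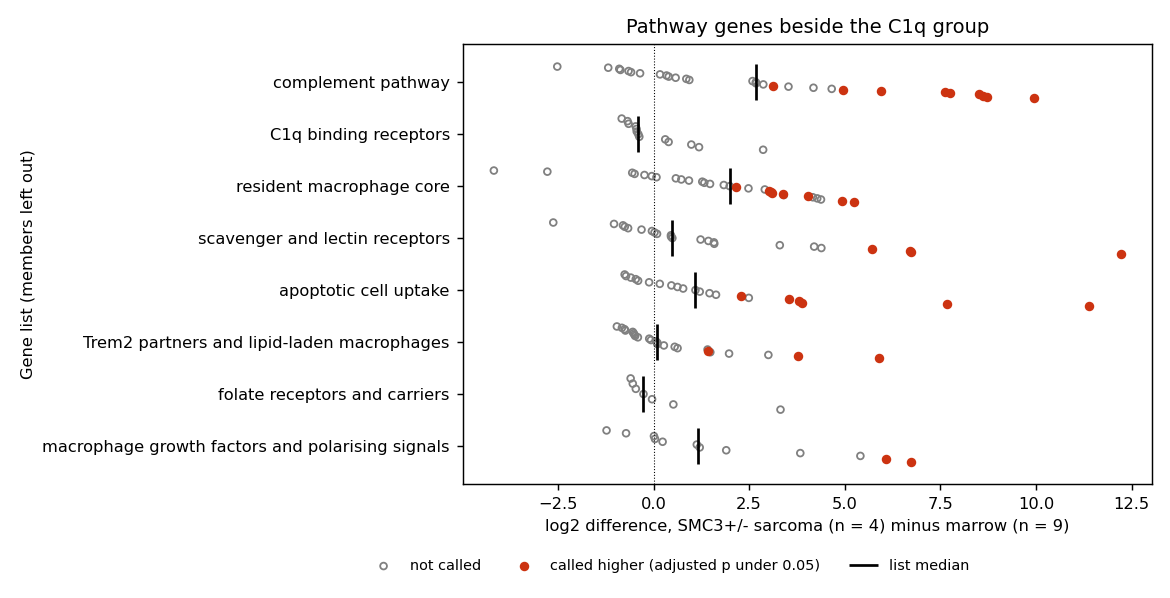
Log2 difference between SMC3+/- sarcoma (n = 4) and marrow (n = 9) for the tested genes of 8 pathway lists, the 10 genes left out. Filled points passed the test, open points did not, and vertical bars are list medians. The complement list has the highest median (2.67), and the receptors for C1q and the folate list have no gene that passed.

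The rest of the complement system moved in part. Of 29 tested genes 9 rose (31.0%), with a median log2 difference of 2.67. C1s1, the protease that C1q carries, was at 20.4, 392, 27.8 and 18.4 CPM in the sarcomas of mice 1267, 1268_1270, 2721 and 948 and at most at 0.848 CPM in marrow, a log2 difference of 8.61 ± 1.25 (SE; adjusted p = 0.00133 in edgeR, and 0.108 with mouse as a block). Its partner protease C1ra did not pass, at 2.87 ± 0.95 (adjusted p = 0.123). C2 and C4b, the substrates of C1s, rose by 7.76 ± 1.21 (adjusted p = 0.00204) and 8.52 ± 1.37 (adjusted p = 0.00239). Both rested on 1268_1270: C4b was at 1591 CPM there and at 19.8 to 33.9 CPM in the other 3 sarcomas, and without it the adjusted p was 0.0933 for C2 and 0.0576 for C4b. Reads of C1s1, C1ra and C4b may be shared with their near-identical copies.

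Serping1, the inhibitor of C1r and C1s, rose by 7.61 ± 1.42 (edgeR adjusted p = 0.00644), and lost the call without 1268_1270 (adjusted p = 0.0714). C3, on which the complement pathways meet, was at 1230 ± 863 CPM (SD, n = 4) in sarcoma and 922 ± 742 CPM (SD, n = 9) in marrow. It did not pass, and the sign of its small difference changed between settings. Vtn, which blocks the terminal complex, and Cfd, factor D of the alternative pathway and a product of fat cells, rose and kept the call without 1268_1270 (adjusted p = 0.00747 and 0.00503). With mouse as a block neither was called (adjusted p = 0.865 and 0.818). Vtn, with 2 counts over all marrows, had to differ to be tested, so nothing is read from its call. Cfd was at 8208 CPM in 1268_1270, the tumour with the high adipocyte markers. The 13 receptors and binders of C1q gave no call, with a median of -0.40.

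Markers of fibroblasts and other tissue cells were also compared between SMC3+/- sarcoma and marrow. The 6 fibroblast genes summed to 0.353 to 31.7 CPM in marrow and to 494 to 4205 CPM in the SMC3+/- sarcomas, all 6 rose, and 1268_1270 had the highest sum. Endothelial markers summed to 8.27 to 147 CPM in marrow and 60.6 to 377 CPM in the sarcomas, where 2 of 5 rose. Adipocyte markers summed to 184 to 35078 CPM in the sarcomas and 5 of 5 rose, and skeletal muscle markers to 5.44 to 1210 CPM (marrow 3.01 to 75.7 CPM), where 3 of 5 rose. Over all genes tested 4.49% were called higher. In each of these lists some genes called were near 0 in marrow, and such genes pass the filter only or mainly through the sarcomas. Among them were Dcn and Col3a1 of the fibroblast list (marrow medians 0.238 and 0.0637 CPM) and Acta1 of muscle (0.0517 CPM). No list of monocyte, neutrophil, erythroid, T cell, B cell or leukaemia markers had a call. The part of these cells in the complement, uptake and receptor results was not tested.

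Other genes of resident macrophages followed the C1q chains in part. Of 29 tested, 8 rose in sarcoma (27.6%) with a list median of 1.99. Lgmn, a lysosomal protease, was at 172, 112, 231 and 232 CPM in the 4 sarcomas against 1.84 to 31.4 CPM in marrow, and rose by 3.11 ± 0.47 (edgeR adjusted p = 0.00172). Lgmn was called in each of the settings without 1268_1270, without the 4 libraries poor in long transcripts and with mouse as a block. Cd5l, a secreted macrophage protein, rose by 5.24 ± 1.14 (edgeR adjusted p = 0.0153) and kept the call without 1268_1270 (0.0308), but not with mouse as a block (0.0952). Apoe, the lipid carrier, and Cbr2, a carbonyl reductase, rose but lost the call without that tumour (adjusted p = 0.0919 and 0.147).

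Genes for the uptake of dying cells gave 6 calls among 21 tested (28.6%), with a median of 1.10. Gas6, the ligand that links phosphatidylserine to Mertk, was at 70.0, 696, 52.0 and 28.9 CPM in the sarcomas and at 0 to 2.43 CPM in marrow. It rose by 7.68 ± 0.97 (edgeR adjusted p = 0.000708) and passed without 1268_1270 (0.00387) and with mouse as a block. Axl, the sister kinase of Mertk, rose by 3.80 ± 0.87 (edgeR adjusted p = 0.0198), and Mfge8, another bridging protein, by 3.54 ± 0.70 (adjusted p = 0.00882). Neither passed without 1268_1270 (adjusted p = 0.296 and 0.173). Gulp1, an adaptor for engulfment, had no count in marrow and was at 46.2 CPM in 1268_1270 and at 0.808 to 1.87 CPM in the other sarcomas.

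Among scavenger and lectin receptors 4 of 23 rose (17.4%), and the list median was 0.49. Scara5, a ferritin receptor also made by fibroblasts, had no count in any marrow (3 counts over the 9 would be 0.0144 CPM) and was at 2.56 to 75.3 CPM in the sarcomas. Cd36, the fatty acid and lipoprotein receptor, was at 4887 CPM in 1268_1270 and at 80.6 to 162 CPM in the others. Its adjusted p went from 0.00794 to 0.257 without that tumour, and those of Mrc2 and Cd209f from 0.0370 and 0.0384 to 0.500 and 0.677.

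Partners of Trem2 and genes of lipid-laden macrophages gave 3 calls among 24 (12.5%), with a median of 0.08, close to that of all genes. Ctsd, a lysosomal protease, was at 2598, 2020.4, 2193 and 2436 CPM in the sarcomas and at 434 to 1436 CPM in marrow, without overlap (1.44 ± 0.38; edgeR adjusted p = 0.0421). Lpl and Ctsk also rose. All 3 lost the call without 1268_1270 (adjusted p = 0.490, 0.0895 and 0.129 for Lpl, Ctsk and Ctsd). Spp1, osteopontin, went the other way: its adjusted p was 0.0513 with 1268_1270 and 0.0281 without it, where its log2 difference was 3.41. None of the 7 folate receptors and carriers beside Folr2 passed.

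Growth factors and polarising signals gave 2 calls among 12 (16.7%). Arg1, arginase of alternatively activated macrophages, was at 1.18, 8.44, 56.1 and 379 CPM in the sarcomas and at 0 to 4.02 CPM in marrow. It rose by 6.73 ± 1.34 (edgeR adjusted p = 0.00904), also without 1268_1270 (0.0186) but not with mouse as a block (0.0641), and like Marco it was highest in mouse 948 and lowest in mouse 1267. Retnla, a secreted product of the same activation, rose by 6.07 ± 1.13 (edgeR adjusted p = 0.00625), but not without 1268_1270 (0.111).

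Genes whose level followed the mean of the 3 C1q chains most closely across the 9 marrows were Smug1 (Pearson r = 0.91), Thbd (0.89), Ankra2 (0.86), Stxbp6, Bmf and Hs1bp3 (0.85 each), out of 8858 genes ranked. At the other end stood Tcn2 and Zmpste24 (-0.86 each) and Fam213a (-0.84). Thbd, thrombomodulin, had r = 0.92 without the 3 marrows poor in long transcripts. Only 1 of the 6 was still among the 100 most similar genes there, and 3 were by rank correlation. In the 7 tumour libraries none of the 6 had a positive r.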

How the data were processed

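RNA-seq of 16 mouse libraries was analysed from the authors' deposited table of raw counts per gene symbol (whole numbers, not normalized). Per the submitters' processing notes, STAR, DESeq, DESeq2 and the mm9 build were used; for the annotation, counter and strand setting, nothing was given in the sources used here. No row lacked a gene name, and spike-in rows numbered 0. Unless stated, every value was computed from those counts.

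Where a mouse gave more than 1 library of a tissue, their counts were added, leaving 14 samples. The closest pair of libraries, the 2 tumours of mouse 2721, still differed by a mean chi-square of 18.6 per gene, so no library was a copy. The test was edgeR 4.0.16 in R 4.3.3 (TMM, filterByExpr, robust glmQLFit, two-sided, Benjamini-Hochberg over all genes tested, calls at an adjusted p under 0.05), with SMC3+/- samples in the tissue comparison and 5 sarcoma mice in the genotype comparison. SE is the log2 difference over the square root of F. Log2 CPM used a prior count of 2. Alternatives used DESeq2 1.42.0, limma 3.58.1 voom, other scalings and filters, samples left out, and mouse as a block. The fits were also run on simulated data, where many of the changes put in were missed, so a gene that did not pass may still differ. Apart from 1268_1270, which may be a pool, each label names 1 mouse, and p-values measure the spread between mice. Mice 1267 and 2721 are in both groups of the tissue comparison, and its main fit has no block. With mouse 841 alone on one side, the spread is that of the other group.

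Mice 1267 and 2721 pair the tissues because both came from the same animal; the deviations of their samples correlated at 0.36 and 0.32 over 9139 genes. The 10 genes, the lists and the alternatives were chosen with earlier results of these data known. Genes named beside the 10 were up to 4 per list with the smallest adjusted p, the C1r, C1s, C1 inhibitor, C2, C4b and C3 genes, and the 6 most and 3 least similar to C1q in marrow (mean log2 CPM of at least 3). Some genes this rule names that did not pass are given only in the counts of their list, and 1 is not reported here. Acp5, Atp6v0d2, Mmp9, Ocstamp and Calcr were named after their values were seen. Promoter sequences came from RefSeq, with entries for 9 of the 10 genes; motif positions count back from the start.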

Additional observations from a re-analysis of the deposited data

Results flagged for a closer look

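Each of the 10 genes was examined in both SMC3+/- groups for a sample whose gap to the nearest other took up more of the range than Dixon's test allows at 95%. Of 20 groups 5 had one, where chance gives about 1 in 20 for independent, normally distributed values. These are skewed CPM of genes that move together, so that rate is only a guide. C1qb was at 23.22 CPM in marrow 3332, with the other 8 marrows at 0 to 10.82 CPM, and at 214.3 CPM in the sarcoma of mouse 2721, with the others at 139.2 to 149 CPM. Mrc1 was at 49.64 CPM in the sarcoma of mouse 1267, below 128.8 to 138.9 CPM in the other 3. Trem2 was at 147.7 CPM in marrow 737, against 2.07 to 43.01 CPM in the rest. Marco was at 2.72 CPM in marrow 3332, against 0 to 0.9235 CPM.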

How the results depend on the processing

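In the tissue comparison 662 genes were called higher and 8 lower. Called higher were 6103 with pan-leukocyte scaling (which moved the median gene from 0.07 to 1.79), 1355 without a filter, 300 without the 4 libraries poor in long transcripts, and 62 without those and 1268_1270; with mouse as a replicate block 107, and 81 in mice 1267 and 2721 alone. DESeq2 called 447 higher and voom 876. Called lower were 13 with pan-macrophage scaling, 83 with DESeq2, 20 with voom, 13 without a filter, 17 with each tumour as a sample, 3 without the 4 libraries and 0 without those and 1268_1270, 1 without the mice of both tissues, 23 with the block and 33 in the 2 mice alone. Leaving out 1 mouse gave 170 (without 1268_1270) to 762 higher and 0 to 16 lower.

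Of pathway genes, 32 were called higher and 0 lower; the higher count was 82 with pan-leukocyte scaling, 21 without the 4 libraries, 8 without those and 1268_1270, 8 with the block, 9 in the 2 mice alone, and 10 to 32 leaving out 1 mouse. Lower were 1 with pan-macrophage scaling, voom or no 4 libraries, 2 with DESeq2, no filter or each tumour as a sample, and 0 to 1 leaving out 1 mouse.

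Signs reversed for C3 (-0.0768 without the 4 libraries, -0.53 also without 1268_1270, -0.87 and -0.83 with the block; -0.37 to 0.65 leaving out 1 mouse), Cd44 (0.0282), Shmt1 (0.28) and Slc19a1 (0.99) with pan-leukocyte scaling, and with the 2 block fits for Itgb1 (-0.16, -0.12), Shmt1 (0.23, 0.27) and Slc19a1 (0.0319, 0.0699).

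For mouse 841 against sarcomas DESeq2 called 7 higher and 55 lower, and leaving out 1 mouse gave 0 to 1 higher; pan-leukocyte scaling moved the median gene from -0.33 to -1.93. Against marrow 2 were called higher, 7 with pan-leukocyte and 57 with pan-macrophage scaling, 4 with DESeq2, 109 with voom, 4 without a filter, 29 with all groups in 1 fit and 0 to 3 leaving out 1 mouse; lower were 1 with pan-macrophage scaling and 3 with DESeq2. There Mertk reversed to 0.16, 0.45 and 2.54 with pan-leukocyte scaling, pan-macrophage scaling and voom (-0.30 to 0.38 leaving out 1 mouse), and Gpnmb to 0.0844 and 0.56 with the last 2 (-0.53 to 0.0431). The cause was not tested in any of these.

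Among the 10 genes, differences were marked as moved beyond the spread between mice for Folr2 (5.29 to 10.89 over 27 alternatives), Cd163 (0.29 to 5.84), Mrc1 (2.93 to 5.33) and Trem2 (0.40 to 2.90). Mertk was not marked but ran from 1.38 to 4.30, the highest with voom. Depth limits Folr2 and Marco in marrow, with 39 and 133 counts in all.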
